A study of Mus musculus with 36 samples.

Results

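The dystrophin-glycoprotein complex was examined in perisynaptic Schwann cells (PSCs), the glia that cap the neuromuscular junction, and in 2 other cell populations sorted from the same muscles. The complex joins the basement membrane outside a cell to the actin cytoskeleton inside it. Its core is dystroglycan, a single gene product that is cleaved into an extracellular subunit that binds laminin and other matrix proteins and a transmembrane subunit that binds dystrophin or its relative utrophin. Sarcoglycans stabilize the complex in the membrane, and syntrophins and dystrobrevins attach signaling proteins to it on the inner side. The complex is best known from muscle, where its loss causes muscular dystrophies, and Schwann cells assemble their own version of it, in which dystroglycan receives laminin signals for myelination and node formation. The 10 genes described here are Dag1, Utrn, Dmd, Sgcb, Sgcd, Sgce, Sntb1, Sntb2, Dtna and Dtnb. They were taken from the count table by matching Ensembl identifiers to these symbols, all 10 were found among 52636 genes, and all 10 passed the filter on low counts with 15330 genes in all.

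All mice carried both transgenes, S100β-GFP and NG2-dsRed, so GFP was driven by the S100β promoter and dsRed by the NG2 (Cspg4) promoter in every animal. Cells from dissociated diaphragm, pectoralis, forelimb and hindlimb muscles were sorted by fluorescence into S100β-GFP+;NG2-dsRed+ cells (PSCs, labelled NG2DsRed+/S100GFP+), S100β-GFP+ cells (other Schwann cells, labelled S100GFP+) and NG2-dsRed+ cells (pericytes and other NG2 cells, labelled NG2DsRed+), and each library came from the cells of a single mouse. The mice were juvenile, postnatal day 15 to 21 by the methods. The label of library 1 carries the same range, but the upper end in the labels rose by 1 day with each library number, to 46 at library 26, and stayed at 46 thereafter. Such a regular run may come from how the labels were filled in, so it was not used as an age. The groups were defined by 2 promoter-driven reporters, no animal lacked a reporter, and whether libraries of different cell types came from the same mouse was not stated.

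The table held 27 of 36 labelled libraries: 9 from PSCs, 8 from S100β-GFP+ cells and 10 from NG2-dsRed+ cells, each with 5221655 to 9592875 counts on genes. The labels were set beside the levels of marker genes. The summed level of 8 Schwann lineage markers, among them Sox10, was 2005 to 2930 CPM (counts scaled to an equal library total, with TMM normalization) in PSC libraries, 61.2 to 416 in S100β-GFP+ libraries and 34.0 to 79.9 in NG2-dsRed+ libraries. Of these markers, Ngfr (means of 9.33, 8.40 and 10.8 CPM in that order) and Gfra3 (1.07, 2.07 and 0.419 CPM) did not follow the sum. The 8 markers of myelinating Schwann cells summed to 2519 to 3412, 1528 to 3613 and 297 to 1041 CPM in the same order. S100β-GFP+ libraries carried the highest levels of 6 fibroblast markers (10117 to 22150 CPM, against 424 to 1746 in PSCs and 1272 to 12042 in NG2-dsRed+ cells) and of 6 macrophage and leukocyte markers (1090 to 10354 CPM, against 34.3 to 570 and 12.8 to 67.6). Of the macrophage and leukocyte markers, Lyz2 made up most of the PSC sums, at a mean of 170 CPM against 27.1 in NG2-dsRed+ cells. The others averaged 3.25 CPM (Cd68) or less in PSCs. No marker of these lists was at 0 in any of the 3 populations. The study takes S100β-GFP+ cells as Schwann cells, while these 8 libraries had a Schwann lineage marker sum below every PSC library and high fibroblast and macrophage markers, so they are named here by their reporter. Every comparison with them carries these marker differences, whose part in the results was not tested. The 10 markers of pericytes and smooth muscle had their highest sums in NG2-dsRed+ libraries, at 7389 to 15876 CPM. Their sums were 791 to 1469 CPM for PSCs and 244 to 1652 CPM for S100β-GFP+ cells. Cspg4, whose promoter drove dsRed, did not follow the sum. It averaged 689 ± 132 CPM for PSCs (SD, n = 9) and 665 ± 138 for the NG2-dsRed+ group (SD, n = 10). Cspg4 was therefore a large part of the PSC sums, whose median was 1077 CPM. The 6 endothelial markers summed to 1248 to 3001 CPM in NG2-dsRed+ libraries, against 106 to 558 in PSCs and 123 to 2322 in S100β-GFP+ libraries. Between the single-labelled populations Tek did not follow this sum, at means of 140 CPM in NG2-dsRed+ and 134 in S100β-GFP+ cells (19.4 in PSCs). Comparisons with NG2-dsRed+ cells carry these pericyte and endothelial marker differences, whose part in the results was not tested. In bulk libraries, fewer cells of a type and less RNA per cell cannot be told apart. Libraries differed widely in the share of counts on 3 genes, Lars2, Gm23935 and Gm15564, which took 3.64 to 36.6% of counts in PSCs, 19.5 to 39.1% in S100β-GFP+ cells and 12.5 to 40.0% in NG2-dsRed+ cells. S100β-GFP+ libraries 14, 17 and 22 stood apart in earlier results, and they had higher sums of 6 endothelial markers (747 to 2322 CPM) and lower macrophage and leukocyte sums (1090 to 3531 CPM) than the other 5 (123 to 182 and 5123 to 10354 CPM). Each of the 30 member comparisons below kept its call and direction without them.

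Most members of the complex were expressed at a higher level by PSCs than by S100β-GFP+ cells, and 6 of the 10 exceeded NG2-dsRed+ cells. Against S100β-GFP+ cells, 7 members were higher in PSCs (Dag1, Utrn, Dmd, Sgcb, Sgce, Sntb1 and Dtna), Sntb2 was lower, and Sgcd and Dtnb did not pass the test. Of all genes tested, 22.9% were higher and 24.1% lower in this comparison (edgeR quasi-likelihood test, Benjamini-Hochberg adjusted p under 0.05). Against NG2-dsRed+ cells, 6 members were higher in PSCs (Dag1, Dmd, Sgcd, Sgce, Dtna and Dtnb), Sntb2 was again lower, and Utrn, Sgcb and Sntb1 did not pass, where 20.9% of all genes were higher and 23.1% lower. The Dtnb call was lost without PSC library 18, which left 5 higher. The Sgce calls in both PSC comparisons were lost with a covariate described below. Between the single-labelled populations, 2 members were higher in S100β-GFP+ cells (Sgcd and Sntb2) and 4 were lower (Utrn, Dmd, Sgcb and Sntb1), against 18.1% and 15.2% of all genes. The comparisons share libraries, so their calls are not independent of each other. The median log2 fold change of the 10 members was 1.05 in the S100β-GFP+ comparison with PSCs and 0.99 in the NG2-dsRed+ comparison, where the median of all genes was 0.04 and 0.02. Dag1, Dmd, Sgce and Dtna were higher in PSCs than in both other populations, as were 13.9% of all genes, and Sntb2 was lower than in both, as were 14.4% of all genes. In 5 members the PSC and S100β-GFP+ libraries did not overlap (Dag1, Dmd, Sgcb and Sntb1 above, Sntb2 below), where 15.5% of all genes showed no overlap in either direction. PSC and NG2-dsRed+ libraries were apart for 1 member, Dag1, against 13.9% of all genes, and the single-labelled populations for 4 (Sntb2, Dmd, Sgcb and Sntb1), against 11.6%.

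**Figure D1:**
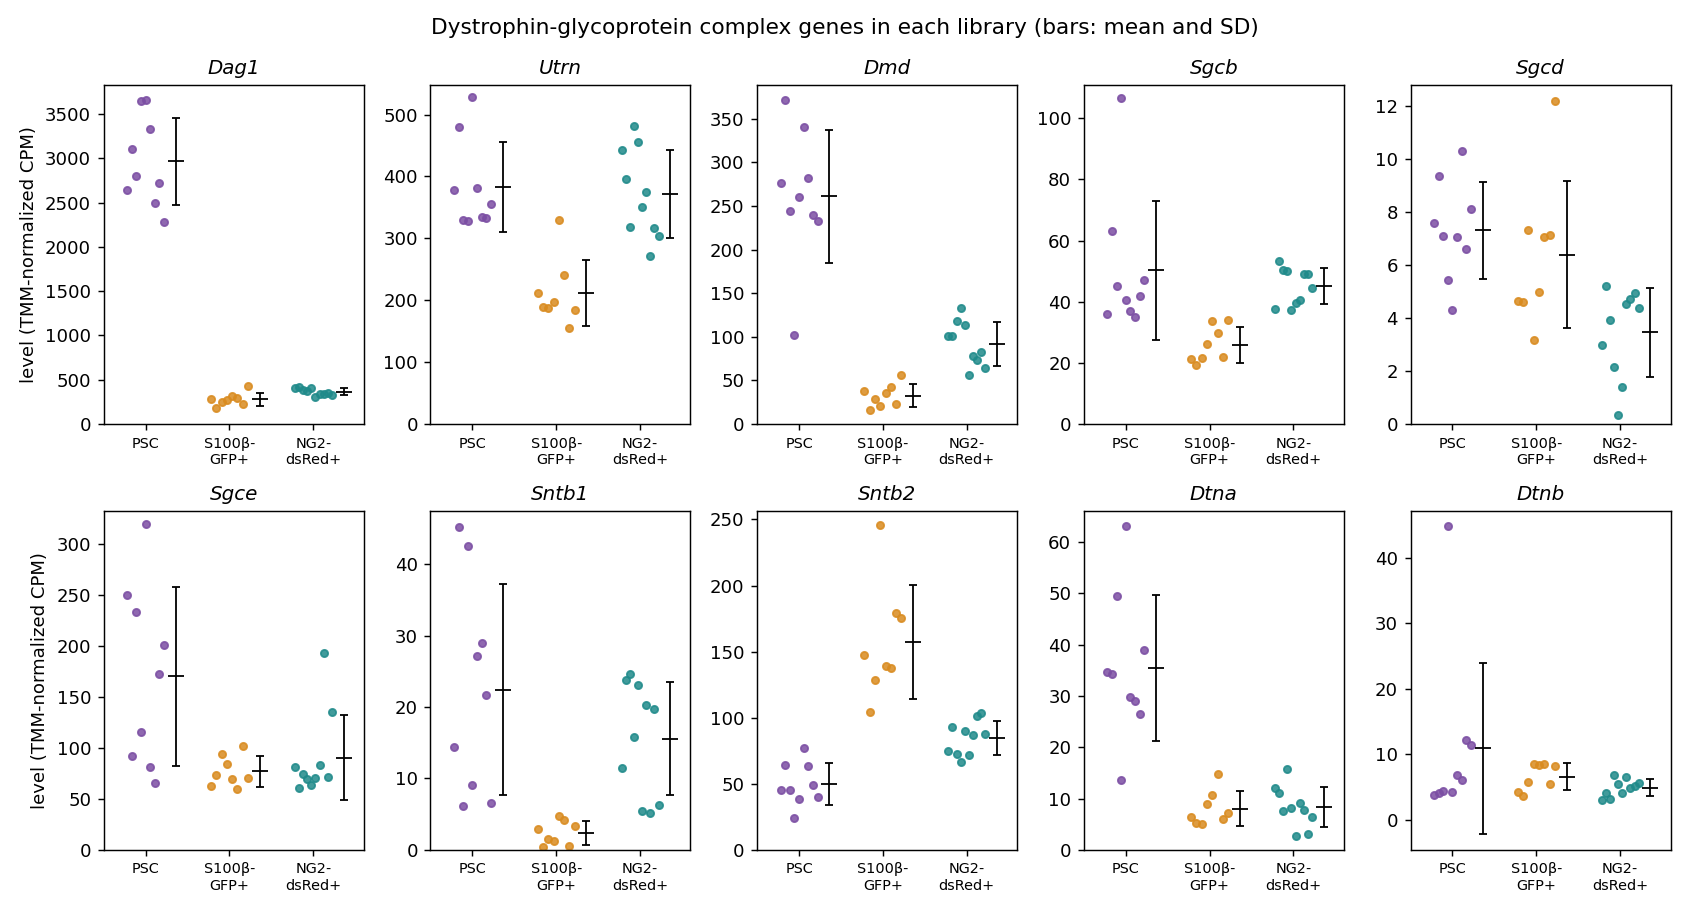
Level of each of the 10 members in every library, in TMM-normalized CPM on linear axes that differ between panels; points are libraries of PSCs (purple, n = 9), S100β-GFP+ cells (orange, n = 8) and NG2-dsRed+ cells (teal, n = 10), and black bars give the mean and SD. The Dag1 panel shows PSC libraries at 2287 to 3656 CPM and all other libraries at or below 428 CPM, and the Sntb2 panel shows the opposite order.

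**Figure D2:**
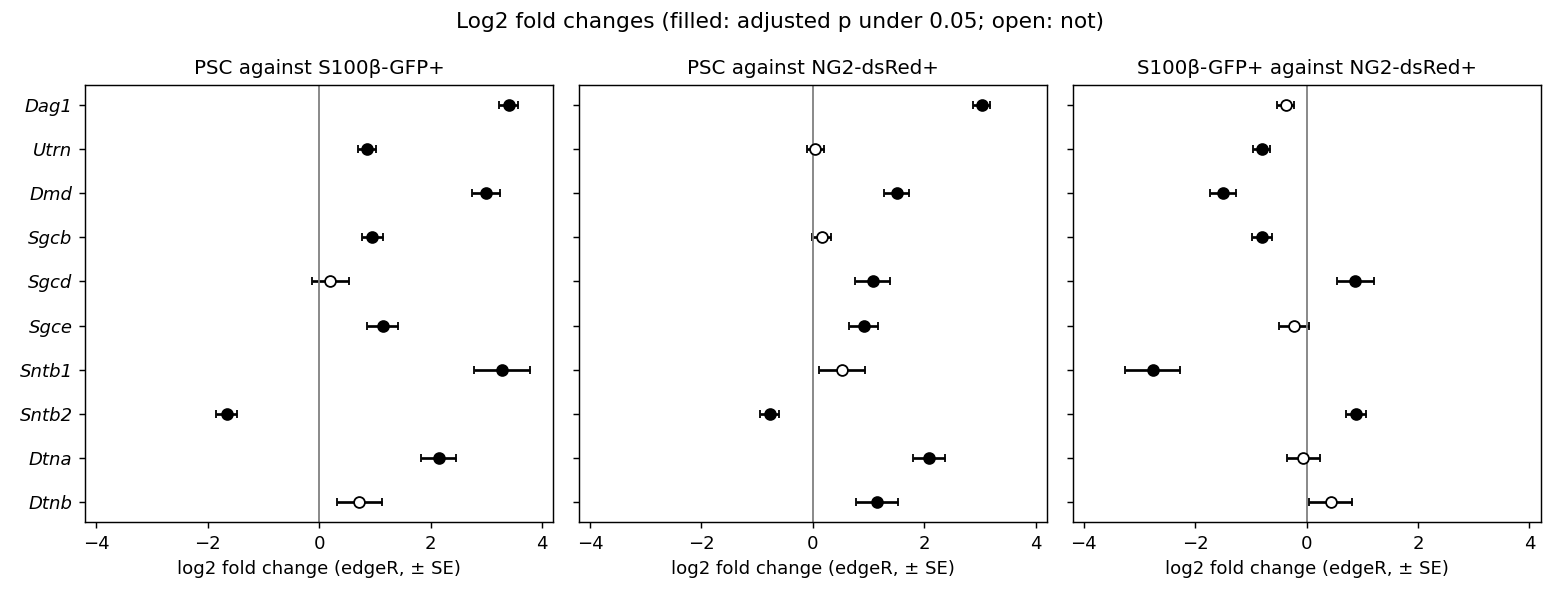
Log2 fold change of each member with its standard error in the 3 comparisons of sorted populations; filled points passed the test at an adjusted p of 0.05 and open points did not. Dag1 lies at 3.40 and 3.03 in the PSC comparisons, while Sntb2 lies at -1.66 and -0.77.

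Dag1 encodes dystroglycan, the receptor at the center of the complex, and it was the member with the highest level per length in PSCs. The 9 PSC libraries had 2287 to 3656 CPM with a median of 2798. The 8 S100β-GFP+ libraries had 175 to 428 CPM with a median of 276, and the 10 NG2-dsRed+ libraries had 301 to 419 CPM with a median of 357. Every PSC library lay far above every other library, while the single-labelled populations overlapped. PSCs averaged 2966 ± 495 CPM (SD, n = 9), S100β-GFP+ cells 280 ± 75.0 (SD, n = 8) and NG2-dsRed+ cells 364 ± 40.1 (SD, n = 10). Dag1 was 10.6-fold above its S100β-GFP+ level in PSCs (log2 fold change 3.40 ± 0.17 SE, edgeR adjusted p = 5.3e-15) and 8.16-fold higher than in NG2-dsRed+ cells (log2 fold change 3.03 ± 0.16 SE, edgeR adjusted p = 2.7e-15). These differences placed Dag1 at the 98.2 and 96.9 percentile of all log2 fold changes. A list of PSC-enriched genes that the study drew from these same libraries includes Dag1 and Dtna, so that list is not independent evidence of their direction. The single-labelled populations differed by -0.38 ± 0.15 (SE) on the log2 scale for Dag1, which did not pass the test (edgeR adjusted p = 0.059), although limma-voom with library weights (-0.45, adjusted p = 0.0012), a covariate for the 3-gene share above (-0.40, adjusted p = 0.020) and the fit without S100β-GFP+ library 33 (-0.49, adjusted p = 0.012) moved it past the threshold.

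Expressed per kilobase of exon, Dag1 reached 467 CPM in PSCs and ranked 66 of 15316 genes, compared with rank 895 in S100β-GFP+ cells and rank 607 in NG2-dsRed+ cells. The gene lies at chr9:108204634-108263958 on the minus strand (GRCm38), with 6357 bases of exon. RefSeq gives Dag1 starts at positions 108263958 and 108263815, and the counts do not say which was used. The 250 bases before the first of these, the end of the annotated gene, are shown as the upstream sequence of the member with the largest differences in both PSC comparisons, with GC boxes (GGGCGG on either strand, a sequence that general GC-box factors bind) in capitals. The window is chr9:108263959-108264208 in the RefSeq annotation of GRCm38.p6, read 5′ to 3′ on the minus strand.
Dag1 upstream window: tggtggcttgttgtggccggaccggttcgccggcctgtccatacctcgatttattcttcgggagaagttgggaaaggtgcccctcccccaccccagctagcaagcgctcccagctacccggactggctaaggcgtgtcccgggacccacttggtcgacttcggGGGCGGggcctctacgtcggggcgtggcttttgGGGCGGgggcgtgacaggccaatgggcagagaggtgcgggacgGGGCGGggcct
The Dag1 window had 67.6% GC, where the median of 32817 promoter windows of the same length was 52.4%, and it held 3 GC boxes, a motif that 32.7% of all windows held at least once. The window of the other start, which overlaps it, had 74.8% GC and also 3 GC boxes. RefSeq windows were found for 6 of the 10 members, 11 windows in all, and 8 of these 11 held a GC box. Some windows of Dtnb overlap too, so the 11 are not independent and their share cannot be set against that of all windows. None of the 11 held ACAAAG, a motif of SOX factors that 16.5% of all windows held, which says only that these letters were not in these windows.

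Utrn and Dmd encode utrophin and dystrophin, the large homologous proteins that tie dystroglycan to actin, utrophin being concentrated at the muscle side of the neuromuscular junction. Utrn was at nearly the same level in PSCs and NG2-dsRed+ cells and lower in S100β-GFP+ cells. It had 328 to 529 CPM (median 356) in PSC libraries, 155 to 330 (median 193) in S100β-GFP+ libraries and 271 to 481 (median 363) in NG2-dsRed+ libraries. Only S100β-GFP+ library 17, at 330 CPM, reached into the PSC range. Utrn was 1.81-fold above its S100β-GFP+ level in PSCs (log2 fold change 0.86 ± 0.16 SE, edgeR adjusted p = 4.8e-05), while its difference from NG2-dsRed+ cells was 0.05 ± 0.15 (SE) on the log2 scale (adjusted p = 0.83). S100β-GFP+ cells were lower than NG2-dsRed+ cells by a log2 fold change of -0.81 ± 0.15 (SE, edgeR adjusted p = 0.00012).

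Dmd differed between all 3 populations. Its level was 102 to 371 CPM (median 261) in PSC libraries, 16.2 to 55.7 (median 32.0) in S100β-GFP+ libraries and 56.1 to 133 (median 91.5) in NG2-dsRed+ libraries. PSC library 18, at 102 CPM, was the only PSC library inside the NG2-dsRed+ range, the other 8 lying at 232 CPM or above, and no S100β-GFP+ library reached the NG2-dsRed+ range. Dmd was 8.00-fold above its S100β-GFP+ level in PSCs (log2 fold change 3.00 ± 0.25 SE, edgeR adjusted p = 4.9e-11) and 2.83-fold higher than in NG2-dsRed+ cells (log2 fold change 1.50 ± 0.22 SE, edgeR adjusted p = 1.8e-06). NG2-dsRed+ cells were in turn 2.82-fold above S100β-GFP+ cells (log2 fold change of S100β-GFP+ minus NG2-dsRed+ cells -1.50 ± 0.23 SE, edgeR adjusted p = 7.9e-06). Dmd is the classic gene of muscle fibers, and 10 muscle fiber markers summed to 225 to 1860 CPM in PSCs, 204 to 737 in S100β-GFP+ libraries and 197 to 798 in NG2-dsRed+ libraries. The 6 satellite cell and myoblast markers summed to 29.0 to 67.1, 10.1 to 85.6 and 74.4 to 178 CPM in the same order. The PSC library with the highest muscle fiber sum, library 18, had the lowest Dmd level of the 9. In NG2-dsRed+ cells, library 13 had both the highest muscle fiber sum (798 CPM) and the highest Dmd level (133 CPM). The part of muscle fiber RNA in the Dmd levels was not tested.

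The Dmd counts add up transcripts from more than 1 start. The gene spans 2257.3 kb at chrX:82948870-85206141 (GRCm38, plus strand), and its 3 protein-coding transcripts in GENCODE M21 begin at 2 sites: a full-length form of 79 exons and 3678 codons, and short forms of 617 and 604 codons that start at position 85048413 near the end of the gene. Short dystrophins from internal promoters are the known products of many non-muscle cells, and gene-level counts do not say which form was measured. The 250 bases before the RefSeq starts at 82948870 and 85048295 are shown. These starts lie a short way upstream of the GENCODE coding transcripts, which begin at 82948903 and 85048413. At each of the RefSeq starts GENCODE M21 places a non-coding transcript. The windows are printed with GC boxes in capitals (overlapping boxes run together).
Dmd upstream of the full-length start, chrX:82948620-82948869: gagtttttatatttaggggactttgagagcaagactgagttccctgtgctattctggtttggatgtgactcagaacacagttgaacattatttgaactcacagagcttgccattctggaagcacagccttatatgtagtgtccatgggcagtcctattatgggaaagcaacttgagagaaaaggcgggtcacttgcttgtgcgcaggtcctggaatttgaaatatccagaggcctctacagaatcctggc
Dmd upstream of the internal start, chrX:85048045-85048294: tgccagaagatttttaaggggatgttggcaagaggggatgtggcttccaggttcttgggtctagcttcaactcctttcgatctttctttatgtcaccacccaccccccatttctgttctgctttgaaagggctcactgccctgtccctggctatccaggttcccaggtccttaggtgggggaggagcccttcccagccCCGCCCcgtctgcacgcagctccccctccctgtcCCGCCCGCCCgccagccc
The full-length window had 45.2% GC and no GC box, and the internal window had 60.0% GC and 3 GC boxes on the minus strand. Counts were not split by start, so these windows describe the gene and not its use in a population.

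The balance of utrophin to dystrophin was read as the log2 ratio of their counts within each library, which does not depend on scaling between libraries. It was 0.16 to 1.69 in PSC libraries, 1.73 to 3.53 in S100β-GFP+ libraries and 1.43 to 2.64 in NG2-dsRed+ libraries. PSCs had the lowest ratios, and library 18, with the highest ratio of the PSCs, was the only one within the NG2-dsRed+ range. The means of 0.61 ± 0.47 (SD, n = 9), 2.76 ± 0.57 (SD, n = 8) and 2.04 ± 0.32 (SD, n = 10) correspond to 1.52, 6.79 and 4.10 Utrn counts per Dmd count. The log2 difference of PSCs was -2.16 from S100β-GFP+ cells and -1.43 from the NG2-dsRed+ group (exact permutation test over libraries, two-sided, p = 8.2e-05, the smallest the design allows, and 4.3e-05, both with an adjusted p of 0.00019 over 9 tests). S100β-GFP+ cells exceeded NG2-dsRed+ cells by 0.73 (exact permutation test, two-sided, adjusted p = 0.0073). These are count ratios and take no account of transcript length, which differs between forms of Dmd.

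**Figure D3:**
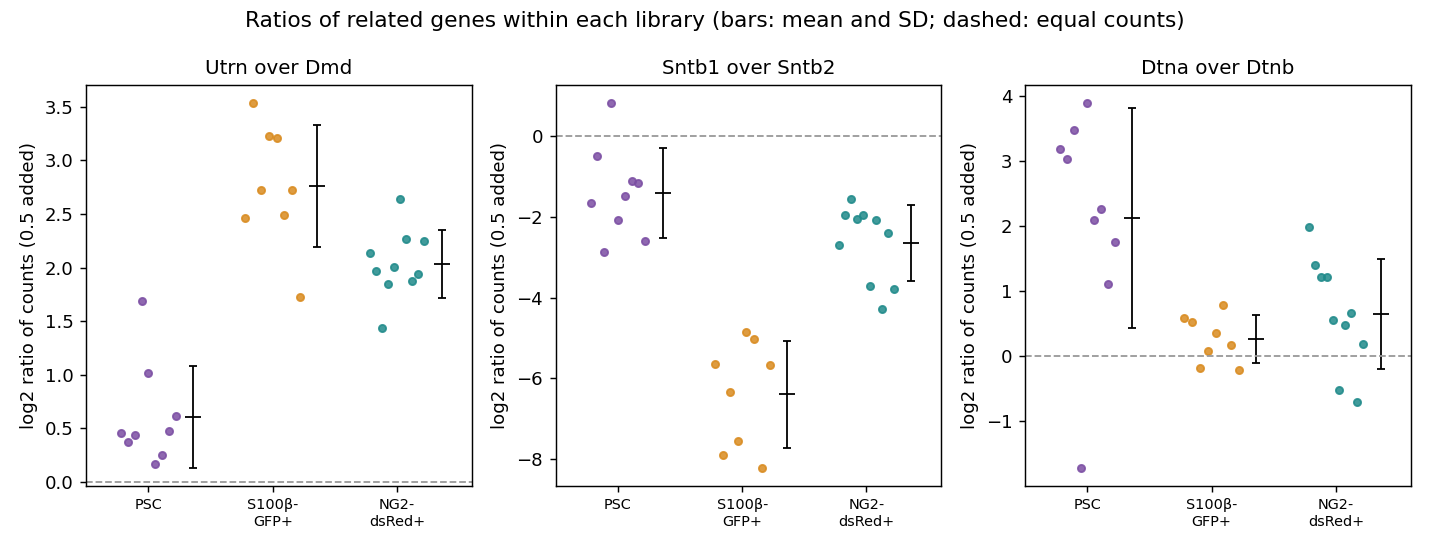
Log2 ratio of counts of related members within each library (0.5 counts added to each), with libraries as points and the mean and SD as black bars; the dashed line marks equal counts. For Utrn over Dmd the PSC mean is 0.61 against 2.76 in S100β-GFP+ and 2.04 in NG2-dsRed+ libraries, and for Sntb1 over Sntb2 all S100β-GFP+ libraries lie at or below -4.84.

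Of the 3 sarcoglycans, Sgce was higher in PSCs than in both other populations, and of the PSC comparisons Sgcb passed only the one with S100β-GFP+ cells and Sgcd only the one with NG2-dsRed+ cells. Sgcb encodes β-sarcoglycan, a subunit shared by muscle and non-muscle complexes. Its level was 34.9 to 107 CPM (median 42.0) in PSC libraries, 19.4 to 34.0 (median 23.9) in S100β-GFP+ libraries and 37.3 to 53.2 (median 46.8) in NG2-dsRed+ libraries. Every S100β-GFP+ library lay below every library of the other populations, whose ranges overlapped, and PSC library 18 was the highest of all. Sgcb was 1.94-fold above its S100β-GFP+ level in PSCs (log2 fold change 0.96 ± 0.19 SE, edgeR adjusted p = 0.00012), and S100β-GFP+ cells were also lower than NG2-dsRed+ cells (log2 fold change -0.80 ± 0.19 SE, edgeR adjusted p = 0.0011). The difference between PSCs and NG2-dsRed+ cells was 0.16 ± 0.18 (SE, adjusted p = 0.50) and turned to -0.09 with limma-voom.

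Sgcd encodes δ-sarcoglycan, the closest partner of β-sarcoglycan, and was the member with the fewest counts in NG2-dsRed+ cells (236 in all 10 libraries). It had 4.30 to 10.3 CPM in PSC libraries, 3.18 to 12.2 in S100β-GFP+ libraries and 0.351 to 5.19 in NG2-dsRed+ libraries, with medians of 7.09, 6.02 and 4.15. All 3 ranges overlapped. Sgcd was 2.10-fold higher in PSCs than in NG2-dsRed+ cells (log2 fold change 1.07 ± 0.31 SE, edgeR adjusted p = 0.0063), and its difference from S100β-GFP+ cells was 0.20 ± 0.33 (SE, adjusted p = 0.65). S100β-GFP+ cells were 1.84-fold above NG2-dsRed+ cells (log2 fold change 0.88 ± 0.33 SE, edgeR adjusted p = 0.038), a call that was lost without the filter on low counts and when any of S100β-GFP+ libraries 11, 22, 27 and 33 or NG2-dsRed+ libraries 13 and 21 was left out (adjusted p = 0.054 to 0.12 in these fits).

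Sgce encodes ε-sarcoglycan, the form that takes the place of the muscle-restricted α-sarcoglycan in other tissues, and is an imprinted gene read from the paternal copy. Its level was 65.6 to 319 CPM (median 172) in PSC libraries, 59.6 to 102 (median 72.2) in S100β-GFP+ libraries and 60.6 to 193 (median 72.9) in NG2-dsRed+ libraries. PSC libraries spread over most of that range, and 3 of the 9 (6, 23 and 31) lay within the S100β-GFP+ range. Sgce was 2.21-fold above its S100β-GFP+ level in PSCs (log2 fold change 1.14 ± 0.28 SE, edgeR adjusted p = 0.0013) and 1.89-fold higher than in NG2-dsRed+ cells (log2 fold change 0.92 ± 0.26 SE, edgeR adjusted p = 0.0048). When the Lars2, Gm23935 and Gm15564 share was added to the same fit as a covariate, the log2 fold changes fell to 0.39 (adjusted p = 0.051) and 0.35 (adjusted p = 0.056), and neither call held.

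Sgce, Sntb1 and Dtna varied with that share within PSCs. The 4 PSC libraries with under 10% of counts on the 3 genes (4, 12, 20 and 36, at 3.64 to 9.66%) had 201 to 319 CPM of Sgce, and the other 5 (17.8 to 36.6%) had 65.6 to 172 CPM. The same 4 libraries were higher for Dtna (34.6 to 63.1 CPM against 13.7 to 34.3) and lower for Sntb1 (6.15 to 14.4 CPM against 21.7 to 45.3). In these 3 members the sets did not overlap, as was the case for 11.7% of all genes tested, and in the other 7 members they did. The limit of 10% was chosen after the values were seen, so these ranges are a description with no test. In NG2-dsRed+ cells the libraries with the lowest shares, 28 (12.5%) and 35 (19.3%), had the highest Sgce levels of their group, 193 and 135 CPM, and Sntb1 levels of 5.17 and 6.31 CPM, among the 3 lowest of their group. The remaining low Sntb1 library of that group, 21 at 5.41 CPM, had a share of 32.3%. Dtna stood at 7.76 and 6.47 CPM in libraries 28 and 35, below the group's median of 7.91, so the higher Dtna level of low-share PSC libraries was not seen there. Libraries 28 and 35 also had the highest fibroblast marker sums of that group, 12042 and 8872 CPM, and the part of either measure in the Sgce level was not tested.

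**Figure D4:**
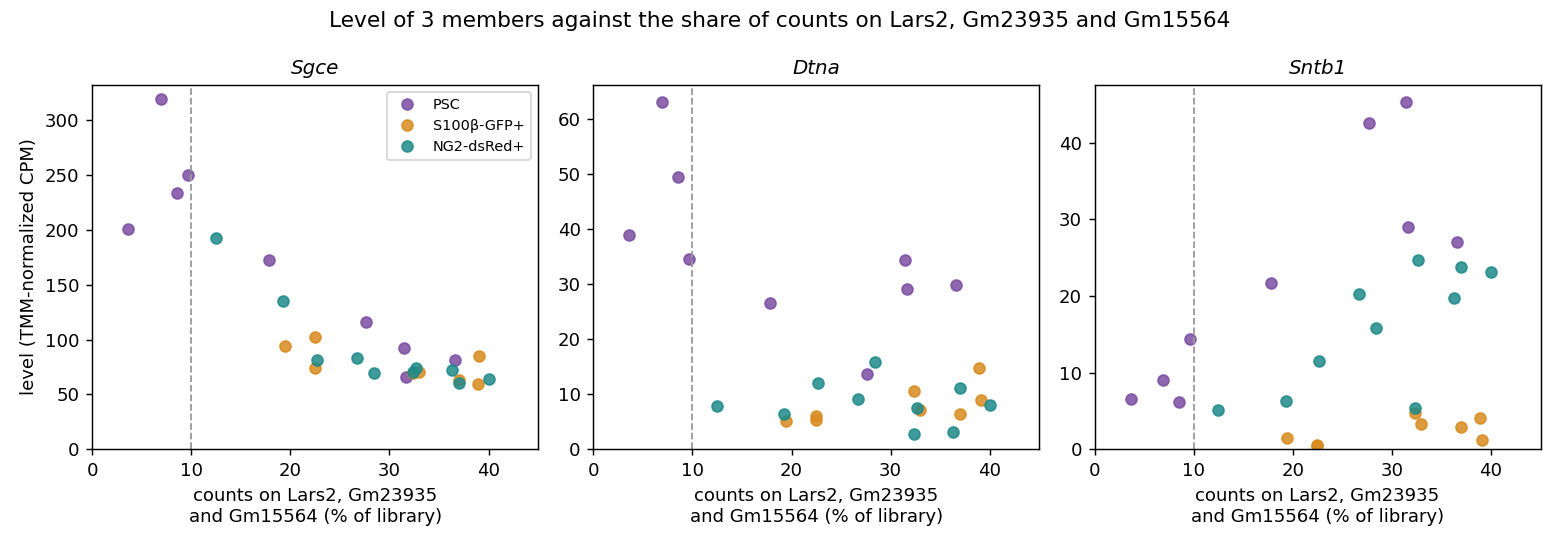
Level of Sgce, Dtna and Sntb1 in each library (TMM-normalized CPM, vertical axes from 0) against the percent of that library's counts on Lars2, Gm23935 and Gm15564; points are libraries of PSCs (purple), S100β-GFP+ cells (orange) and NG2-dsRed+ cells (teal), and the dashed line marks 10%. The 4 PSC libraries left of the line have 201 to 319 CPM of Sgce and 6.15 to 14.4 CPM of Sntb1.

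The β-syntrophins, adaptors that bind dystrophin, utrophin and dystrobrevin and carry signaling proteins on their PDZ domains, went in opposite directions. Sntb1 (β1-syntrophin) had 6.15 to 45.3 CPM (median 21.7) in PSC libraries, 0.375 to 4.73 (median 2.21) in S100β-GFP+ libraries and 5.17 to 24.6 (median 17.8) in NG2-dsRed+ libraries. All S100β-GFP+ libraries lay below all others, while PSC and NG2-dsRed+ libraries overlapped. Sntb1 was 9.73-fold above its S100β-GFP+ level in PSCs (log2 fold change 3.28 ± 0.51 SE, edgeR adjusted p = 3.8e-06) and 6.78-fold higher in NG2-dsRed+ cells than in S100β-GFP+ cells (edgeR adjusted p = 5.6e-05). The difference between PSCs and NG2-dsRed+ cells was 0.52 ± 0.42 (SE, adjusted p = 0.33). It became 1.15 ± 0.30 (SE, adjusted p = 0.0027) with the 3-gene share as a covariate and -0.10 (adjusted p = 0.83) with limma-voom.

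Sntb2 (β2-syntrophin), which is concentrated at the neuromuscular junction in muscle, was the only member that was lower in PSCs than in both other populations. It had 24.4 to 76.7 CPM (median 45.4) in PSC libraries, 104.5 to 246 (median 143) in S100β-GFP+ libraries and 66.4 to 103.7 (median 87.3) in NG2-dsRed+ libraries. Every S100β-GFP+ library was above every library of the other populations, and a single PSC library, 23 at 76.7 CPM, lay within the NG2-dsRed+ range. PSCs had 3.16-fold less Sntb2 than S100β-GFP+ cells (log2 fold change -1.66 ± 0.18 SE, edgeR adjusted p = 1.1e-08) and 1.71-fold less than NG2-dsRed+ cells (log2 fold change -0.77 ± 0.17 SE, edgeR adjusted p = 0.00054). It was 1.85-fold higher in S100β-GFP+ than in NG2-dsRed+ cells (log2 fold change 0.89 ± 0.18 SE, edgeR adjusted p = 0.00019).

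Within a library, the log2 ratio of Sntb1 to Sntb2 counts was -2.87 to 0.80 in PSCs, -8.20 to -4.84 in S100β-GFP+ cells and -4.27 to -1.55 in NG2-dsRed+ cells. The mean was -1.41 ± 1.11 (SD, n = 9), -6.39 ± 1.32 (SD, n = 8) and -2.65 ± 0.94 (SD, n = 10). PSCs exceeded S100β-GFP+ cells by 4.98 (exact permutation test, two-sided, adjusted p = 0.00019) and NG2-dsRed+ cells by 1.24 (exact permutation test, two-sided, adjusted p = 0.021), and S100β-GFP+ cells fell by 3.75 below NG2-dsRed+ cells (exact permutation test, two-sided, adjusted p = 0.00019). PSC library 18 alone had more counts of Sntb1 than of Sntb2, at a log2 ratio of 0.80.

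The dystrobrevins are dystrophin relatives that bind dystrophin or utrophin and the syntrophins. Dtna (α-dystrobrevin) was higher in PSCs than in both other populations, which had nearly the same level. It had 13.7 to 63.1 CPM (median 34.3) in PSC libraries, 5.12 to 14.8 (median 6.74) in S100β-GFP+ libraries and 2.78 to 15.8 (median 7.91) in NG2-dsRed+ libraries. PSC library 18, at 13.7 CPM, was the only PSC library that overlapped them, and the next lowest had 26.5 CPM. Dtna was 4.42-fold higher than in S100β-GFP+ cells (log2 fold change 2.14 ± 0.31 SE, edgeR adjusted p = 1.4e-06) and 4.24-fold higher than in NG2-dsRed+ cells (log2 fold change 2.09 ± 0.29 SE, edgeR adjusted p = 6.8e-07). With Dag1 it was the only member at least 4-fold higher than in both, as were 3.27% of all genes. The single-labelled populations differed by -0.06 ± 0.30 (SE, adjusted p = 0.91), and the sign of this difference changed with DESeq2's size factors. An antisense gene, Gm47898, overlaps exons of Dtna, and it had 28 counts in all libraries together.

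Dtnb (β-dystrobrevin), the form known from non-muscle tissues such as kidney and brain, stayed low. It had 3.78 to 44.9 CPM (median 6.01) in PSC libraries, 3.62 to 8.56 (median 7.01) in S100β-GFP+ libraries and 2.98 to 6.76 (median 4.98) in NG2-dsRed+ libraries. A single PSC library, 18, was at 44.9 CPM, and the other 8 were at 12.2 CPM or below. Dtnb passed the test between PSCs and NG2-dsRed+ cells (log2 fold change 1.15 ± 0.38 SE, edgeR adjusted p = 0.014), but without library 18 the log2 fold change was 0.53 (adjusted p = 0.089), and with limma-voom it was 0.18 (adjusted p = 0.56). Its differences between PSCs and S100β-GFP+ cells (0.72 ± 0.40 SE, adjusted p = 0.14) and between the single-labelled populations (0.43 ± 0.39 SE, adjusted p = 0.44) did not pass. Library 18 also had the highest muscle fiber and macrophage marker sums of the PSCs, 1860 and 570 CPM, and the fewest counts, 5334916. Of that macrophage sum, Lyz2 alone was 566 CPM. The part of these measures in the Dtnb, Dmd and Dtna levels of library 18 was not tested.

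The log2 ratio of Dtna to Dtnb counts was -1.71 to 3.89 in PSC libraries, -0.21 to 0.79 in S100β-GFP+ libraries and -0.70 to 1.99 in NG2-dsRed+ libraries. Library 18 was the lowest PSC library, and the next lowest was at 1.11. PSCs exceeded S100β-GFP+ cells by 1.86 (exact permutation test, two-sided, adjusted p = 0.014) and NG2-dsRed+ cells by 1.47 (exact permutation test, two-sided, adjusted p = 0.030), the second of which did not hold when any of PSC libraries 4, 6, 12 and 20 or NG2-dsRed+ libraries 21 and 30 was left out (differences of 1.25 to 1.36, adjusted p = 0.052 to 0.061, exact permutation tests). The single-labelled populations differed by -0.39 (exact permutation test, two-sided, adjusted p = 0.25).

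Levels of different members can be set side by side only per length, here mean CPM per kilobase of exon. In PSCs Dag1 (467) was followed by Utrn (22.4), Sgce (16.0), Sgcb (12.4), Dmd (11.0), Sntb2 (4.80), Sntb1 (4.21), Dtna (2.10), Dtnb (1.13) and Sgcd (0.886). In S100β-GFP+ cells the order began with Dag1 (44.1), Sntb2 (15.2), Utrn (12.4), Sgce (7.27) and Sgcb (6.40), and Dmd stood at 1.37. In NG2-dsRed+ cells it began with Dag1 (57.2), Utrn (21.7), Sgcb (11.1), Sgce (8.49) and Sntb2 (8.20), with Dmd at 3.87. Dag1 led in all 3 populations, while Sntb2 ranked second in S100β-GFP+ cells and sixth in PSCs. The Dmd value rests on 23801 bases of exon, most of them absent from the short forms, so it understates any short form.

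Of 8 other genes of the complex, 5 passed the filter on low counts. In each PSC comparison 1 was higher and 1 lower, and 3 did not pass, with median log2 fold changes of 0.93 against S100β-GFP+ and 0.20 against NG2-dsRed+ cells (0.04 and 0.02 over all genes tested, here and for the lists that follow). Of all genes tested, 47.0% and 44.0% were called in either direction in these comparisons, so the 2 called of 5 were no larger a share than among all genes. The NG2-dsRed+ count of 2 ranged from 1 to 4 when a library was left out (4 without PSC library 18). Drp2, the dystrophin-related protein that joins dystroglycan to periaxin in myelinating Schwann cells, had 23.8 ± 7.44, 47.7 ± 25.8 and 14.0 ± 8.15 CPM (SD, n = 9, 8 and 10). Its PSC level was below the S100β-GFP+ level (log2 fold change -0.999, edgeR adjusted p = 0.020) and did not pass against NG2-dsRed+ cells (0.77, adjusted p = 0.063). Sgca, the muscle α-sarcoglycan, was lower in PSCs than in NG2-dsRed+ cells (log2 fold change -1.31, edgeR adjusted p = 0.043) at 3.55 ± 4.03 and 8.69 ± 3.25 CPM (SD, n = 9 and 10), and Sspn (sarcospan) passed in neither PSC comparison (log2 fold changes -0.16 and 0.20, adjusted p = 0.51 and 0.40).

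The sugar chain of dystroglycan that binds laminin is built by a series of enzymes, and 18 of 19 listed genes were tested. In the S100β-GFP+ comparison 5 were higher in PSCs, 2 lower and 11 not past the threshold, with a median log2 fold change of 0.36, and in the NG2-dsRed+ comparison 5 were higher, 1 was lower and 12 did not pass, with a median of 0.20. The 7 and 6 called of 18 were smaller shares than the 47.0% and 44.0% of all genes called. With 1 library left out these counts ranged from 6 to 10 and from 5 to 8, so the smaller shares did not hold in every fit. Dpm3, a subunit of the mannose donor synthase, was higher in PSCs (log2 fold changes 2.07 and 1.61, edgeR adjusted p = 0.0022 and 0.0083) but varied widely in PSCs (106 ± 111 CPM, SD, n = 9). B4gat1, a glycosyltransferase of the chain, was higher against S100β-GFP+ cells (0.40, edgeR adjusted p = 0.033) and did not pass against NG2-dsRed+ cells (0.20, adjusted p = 0.28).

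Of 13 listed ligands of dystroglycan, 10 were tested, and their differences ran in both directions. In the S100β-GFP+ comparison 4 were higher and 3 lower in PSCs, and in the NG2-dsRed+ comparison 3 were higher and 6 lower (medians of 0.27 and -1.04). Of all genes tested, 22.9% were higher and 24.1% lower in the first comparison, and 20.9% and 23.1% in the second. Nrxn3, a presynaptic adhesion protein, was higher in PSCs (log2 fold changes 3.58 and 5.18, edgeR adjusted p = 7.5e-06 and 2.1e-08). Agrn encodes agrin, the organizer of acetylcholine receptors at the neuromuscular junction, and was higher in PSCs by log2 fold changes of 2.95 (edgeR adjusted p = 1.2e-09) and 1.11 (edgeR adjusted p = 0.00063). Lama2, the laminin chain of muscle and Schwann cell basement membranes, was lower in PSCs by log2 fold changes of -1.92 (edgeR adjusted p = 1.2e-05) and -2.29 (edgeR adjusted p = 6.5e-07), at 65.9 ± 27.6 against 249 ± 93.8 and 323 ± 154 CPM (SD, n = 9, 8 and 10). Lama4 did not pass in either (0.45 and 0.41, adjusted p = 0.051 and 0.064), and Slit3 was lower by -5.00 and -3.62 (edgeR adjusted p = 3.2e-12 and 6.0e-10). Perlecan (Hspg2) was lower only in the test against NG2-dsRed+ cells (-0.86, edgeR adjusted p = 0.0092), and its difference from S100β-GFP+ cells was 0.08 (adjusted p = 0.83).

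Of 6 laminin β and γ chains, 5 were tested, and none was higher in PSCs in either comparison, while 2 were lower than in S100β-GFP+ cells and 3 lower than in NG2-dsRed+ cells (medians of -0.97 and -1.18). Among all genes, 22.9% were higher and 24.1% lower in the first comparison, and 20.9% and 23.1% in the second. The same shares apply to the partners below, and 5 chains are few to set beside them. Lamb1 was lower by log2 fold changes of -0.97 and -1.28 (edgeR adjusted p = 9.9e-05 and 1.2e-06). Lamb2, the synaptic laminin chain, was lower than in NG2-dsRed+ cells (-0.64, edgeR adjusted p = 0.0018) and did not pass against S100β-GFP+ cells (0.18, adjusted p = 0.41). Of 13 intracellular partners, 10 were tested, with 3 higher and 3 lower than in S100β-GFP+ cells and 3 higher and 4 lower than in NG2-dsRed+ cells (medians of -0.40 and -0.24). Kcnj10, an inward rectifier potassium channel that the complex anchors in other glia, was higher by log2 fold changes of 3.31 and 6.99 (edgeR adjusted p = 1.1e-07 and 8.7e-13). Prx (periaxin), the partner of Drp2, was higher than in NG2-dsRed+ cells (1.88, edgeR adjusted p = 6.9e-06) and had a difference of -0.38 from S100β-GFP+ cells (adjusted p = 0.32). Plec and Ank2, cytoskeletal linkers that bind dystroglycan or dystrophin, were both lower in PSCs in each comparison (Plec -0.96 and -1.29, Ank2 -2.01 and -2.43, edgeR adjusted p = 3.4e-05, 2.2e-07, 2.3e-05 and 1.1e-06). Between the single-labelled populations, 3 of the 5 tested other genes of the complex, 3 of the 18 glycosylation genes, 7 of the 10 ligands, 2 of the 5 laminin chains and 6 of the 10 partners passed the test, where 33.3% of all genes did. The share was below that of all genes for the glycosylation list and above it for the other 4 lists. Lists with 5 tested genes are too small for such a share to say anything about the list. The glycosylation count changed with the fit, as given in the last section.

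The genes whose pattern over the 27 libraries lay nearest to that of a member were found by the root mean square difference of log2 CPM, each gene centered on its own mean. Nearest to Dag1 were Tns3 (0.36) and Cyp2j6 (0.36), where the median gene lay at 1.72. Tns3 averaged 372 ± 101 CPM for PSCs, 40.5 ± 11.7 for S100β-GFP+ and 44.0 ± 6.08 for NG2-dsRed+ cells (SD, n = 9, 8 and 10). Nearest to Dmd were Adgrg6 (0.37), the adhesion receptor that Schwann cells need for myelination, Afap1l2 (0.45) and Stard13 (0.45), with a median of 1.49 over all genes. Adgrg6 had 126 ± 41.6, 16.0 ± 5.25 and 38.4 ± 7.29 CPM (SD, n = 9, 8 and 10). Its order of populations was that of Dmd, which follows from its choice by pattern. Nearest to Utrn were Ctnna1 (0.22), Scaper (0.26) and Mapk3 (0.27), with a median of 0.92.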

How the data were processed

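RNA was extracted with PicoPure from cells sorted from 1 mouse per library and amplified with SMART-Seq v4. Reads were trimmed by the authors, mapped with HISAT2 to GRCm38 and counted per gene with HTSeq, per the submitters' processing notes and methods. Tool versions and whether counting used strand: not given in the sources used here. The deposited values are raw counts per gene, with 27 library columns, all used. The authors removed failed libraries. Their methods leave 1 S100β-GFP+ library fewer than the 8 in the table, and which one was not stated, so all 8 were used. The 9 labelled libraries without a column were not analysed here. Libraries of a cell type differed by more than sampling noise (lowest chi-square over its degrees of freedom 8.10), so none was counted as a repeat.

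Of the 52636 identifiers, 52489 matched GENCODE M21, which gave symbols, positions and exon lengths. Counts were filtered with filterByExpr (minimum count 10), scaled by TMM and fitted in a single edgeR 4.0.16 quasi-likelihood model of the 3 cell types in R 4.3.3, with Benjamini-Hochberg adjustment over 15330 genes and a threshold of 0.05. SEs are the log2 fold change over the square root of its F statistic, and levels are TMM-normalized CPM computed from the counts. Ratios of related genes were log2 of counts with 0.5 added, tested by exact two-sided permutation over libraries (scipy 1.17.1) and adjusted over 9 tests. Alternatives were DESeq2 1.42.0, its size factors in edgeR, no filter, only the cell types compared, limma-voom 3.58.1 with quality weights, no S100β-GFP+ libraries 14, 17 and 22, a covariate for the Lars2, Gm23935 and Gm15564 share, 1 count added to ratios, and leaving out each library. The fit was tested on simulated data. Members, gene lists, markers and alternatives were chosen with earlier results of these data known. All members were named, and of each other list the 4 genes of highest mean CPM and the 2 largest rises and falls in each PSC comparison among genes past the threshold could be named. Some genes that this rule names are not reported here. Sequences came from RefSeq (GRCm38.p6), upstream of annotated starts. A library is the unit of every test.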

Additional observations from a re-analysis of the deposited data

Results flagged for a closer look

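In 3 values, PSC library 18 lay far from the other 8 PSC libraries, by the size of the gap to the nearest library relative to the whole range (Dixon's test at its 95% critical value). Its Dmd level was the lowest, 6.67 on the log2 CPM scale, with the nearest library at 7.86. Its Dtnb level was the highest, 5.50 on the log2 CPM scale, with the nearest library at 3.64. Its log2 ratio of Dtna to Dtnb was the lowest, -1.71, with the nearest library at 1.11. In all, 39 groups of values were examined, and chance flags about 1 in 20. Library 18 also had the highest muscle fiber marker sum (1860 CPM) and macrophage marker sum (570 CPM) of the PSCs and the fewest counts (5334916). Of that macrophage sum, Lyz2 alone was 566 CPM. The part of these measures in the flagged values was not tested. Without it, the S100β-GFP+ comparison still had 7 members higher and 1 lower in PSCs, and the NG2-dsRed+ comparison had 5 higher in place of 6, the call of Dtnb being the one lost.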

How the results depend on the processing

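No paired analysis was possible because the mouse of each library was not given. The library numbers run from 1 to 36 over the 3 cell types, and no 2 cell types share a number. The tests treated libraries as independent, which would ignore any pairing by mouse. Of the fits that changed a setting or left out a library, 994 comparisons of single members kept their direction and call, 11 lost the call, 4 gained it and 11 changed sign. All 11 that changed sign were differences that did not pass the test: Dtna between the single-labelled populations (0.0046 with DESeq2, 0.0051 with its size factors, and 0.0473, 0.0886, 0.0114 and 0.0484 without NG2-dsRed+ library 2 or 13 or S100β-GFP+ library 3 or 11, in a range of -0.25 to 0.09 over all libraries left out), Sgce between them (0.0358 with limma-voom and 0.0015 without NG2-dsRed+ library 28, in a range of -0.30 to 0.0015), and, with limma-voom, Dtnb for PSCs against S100β-GFP+ cells (-0.105), Sgcb (-0.0909) and Sntb1 (-0.0970) for PSCs against NG2-dsRed+ cells. The cause was not tested. The number of members higher in S100β-GFP+ than in NG2-dsRed+ cells was 1 in place of 2 without the filter and ranged from 1 to 2 when a library was left out, Sgcd being the gene lost. The ratio of Dtna to Dtnb between PSCs and NG2-dsRed+ cells ranged from 1.25 to 1.95 over libraries left out.

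Among the lists, 5 of the other genes of the complex were called against S100β-GFP+ cells with DESeq2 and without the filter in place of 2. Of the same list, 4 were called against NG2-dsRed+ cells with DESeq2 and with limma-voom (with a library left out 4 without PSC library 18, and 1 without any of PSC libraries 6, 12, 23, 31, 34 and 36 or NG2-dsRed+ libraries 7, 13, 26, 28 and 35, in place of 2), and 5 between the single-labelled populations without the filter, in place of 3. Of the glycosylation genes, 1 was called between the single-labelled populations without the filter and 7 with limma-voom, in place of 3, and 4 laminin chains were called against S100β-GFP+ cells without libraries 14, 17 and 22. Leaving out these libraries moved the median log2 fold change of all genes between PSCs and S100β-GFP+ cells from 0.04 to 0.16, and the member differences above are not corrected for it. The fewest counts of a member in a library were 2 (Sgcd) and 3 (Sntb1), which limits what can be said of the lowest levels.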
